A study of Mus musculus with 12 samples.

Results

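The genes described here are 9 that move cholesterol and its esters: Abca1, Abcg1, Apoe, Apoc1, Nr1h3, Npc1, Npc2, Lipa and Soat1. They were chosen by name, from the gene symbols of the array annotation, and all 9 were found among 21651 measured genes, each with 1 probe set. Their levels were read on 12 Affymetrix mouse gene arrays of total RNA from white fat (WAT), which stores triglyceride in large droplets, and brown fat (BAT), whose many mitochondria produce heat. Each of the 4 groups held 3 arrays: WAT and BAT of ob/ob mice, and WAT and BAT of ob/ob mice labelled as also Cidea-/- and Cidec-/-, called triple mutants here after that label. All mice were ob/ob, a genotype that lacks leptin, and were male, of strain C57, 4 months old and fed chow. Body weight and fat mass were not among the values read here. Cidea and Cidec are proteins of the lipid droplet surface that promote droplet fusion and growth. Both genotypes lack leptin, so no group stands for a wild-type animal, and the labels do not name the white depot. Whether the arrays of a group stand for different animals is not given, and p-values therefore speak only of the spread between samples, part or all of which may be technical.

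Cells take in cholesterol largely as cholesterol esters inside lipoproteins. In the lysosome, lysosomal acid lipase (Lipa) frees the cholesterol, and Npc2 and Npc1 hand it out of the lysosome. In the endoplasmic reticulum Soat1 makes esters again for storage in droplets, while Abca1 and Abcg1 pass cholesterol to particles outside the cell, some of which carry Apoe or Apoc1. Nr1h3 (LXR alpha) is the nuclear receptor that senses oxysterols and switches on export genes such as Abca1, Abcg1 and Apoe. Fat cells hold a large store of free cholesterol, and macrophages that gather in obese fat take up lipid from dying fat cells and express much of this machinery.

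Promoter sequences are shown for the genes at the extremes of the genotype comparison in WAT: Soat1 and Lipa, which had the largest falls, and Abca1, which did not pass the test. They are RefSeq promoters of build GRCm38.p6, all on the minus strand, 300 bases each, from 250 before to 50 after the start of the gene. RefSeq promoter entries were matched for 6 of the 9 genes, Abcg1 and Apoc1 are named only, and no sequence is given for Npc1. Capitals mark matches to the 3 sets of letters searched on both strands: CACGTG (an E-box), GAGGAA (a core bound by ETS factors such as PU.1 of macrophages) and a DR4-type element of the kind bound by LXR, spelled as GGTNA and GGTCA with 5 bases of any kind between them. The last set of letters was written to take in the element that the Abca1 promoter is known for, so its match there is no finding.
Abca1, chr4:53159846-53160145: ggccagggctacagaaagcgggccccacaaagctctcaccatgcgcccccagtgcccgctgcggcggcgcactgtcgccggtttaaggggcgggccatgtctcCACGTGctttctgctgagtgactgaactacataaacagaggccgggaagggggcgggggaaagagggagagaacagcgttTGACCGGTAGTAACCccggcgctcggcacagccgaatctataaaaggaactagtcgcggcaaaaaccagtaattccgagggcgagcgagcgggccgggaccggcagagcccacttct
Lipa, chr19:34527425-34527724: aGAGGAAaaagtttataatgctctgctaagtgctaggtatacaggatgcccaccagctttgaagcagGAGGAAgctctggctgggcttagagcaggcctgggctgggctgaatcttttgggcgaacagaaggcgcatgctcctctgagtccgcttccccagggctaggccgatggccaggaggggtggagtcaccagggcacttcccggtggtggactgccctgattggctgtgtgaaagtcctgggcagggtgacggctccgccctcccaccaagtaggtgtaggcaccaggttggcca
Soat1, chr1:156474279-156474578: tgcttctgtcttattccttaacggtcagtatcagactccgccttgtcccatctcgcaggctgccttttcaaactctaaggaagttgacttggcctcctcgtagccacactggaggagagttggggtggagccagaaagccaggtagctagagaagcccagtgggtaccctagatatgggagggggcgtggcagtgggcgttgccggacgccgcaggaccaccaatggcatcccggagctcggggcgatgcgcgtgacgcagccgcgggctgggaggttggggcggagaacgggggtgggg
The Abca1 window held 1 E-box at −147 and 1 DR4-type match, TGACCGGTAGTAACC, which runs on the opposite strand and starts at −67. The Lipa window held GAGGAA at −249 and at −183, and the Soat1 window held none of the 3 sets. Among 32851 promoters of the same length, 7.15% held CACGTG, 28.3% held GAGGAA and 0.207% held the DR4-type letters. A match describes the letters and is not evidence of binding.

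The array values are deposited log2 signals, and differences between groups are differences of log2 means. The highest of 45 antigenomic control probe sets, which match no mouse sequence, was at 7.40 to 8.13 on the 12 arrays, and 19.5% to 32.3% of genes lay above it. Signals below that level are treated as not above background. Within a group the arrays correlated at r = 0.978 to 0.996 across genes. Cidea, labelled as deleted, was at 4.86, 5.55 and 5.51 in ob/ob WAT and 8.42, 8.95 and 10.03 in triple mutant WAT (limma log2 change 3.83, SE 0.32, adjusted p = 6.54e-06), and at 11.29 to 11.51 on the BAT arrays. Cidec was between 10.59 and 11.87 on all 12 arrays. Since it is not known here whether either probe set lies inside its deleted stretch, these signals do not check the genotype labels. Among the BAT arrays, ob/ob array 1 had the highest mean of the 19 measured macrophage markers, 9.02 against 8.01 and 8.23 on the other ob/ob BAT arrays. The mean of 6 skeletal muscle markers ran from 7.72 to 11.14 in ob/ob BAT and from 6.41 to 10.72 in triple mutant BAT, against 5.39 to 5.57 in WAT, and its part in the BAT results was not tested.

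The first question was which of the 9 genes differ between the labelled genotypes in WAT. In triple mutant WAT the ester synthase Soat1, the lysosomal lipase Lipa, the exporter Abcg1, the lysosomal transporters Npc1 and Npc2 and the carrier Apoe fell, the carrier Apoc1 and the receptor Nr1h3 rose, and the exporter Abca1 did not pass the test. That is 6 genes lower and 2 higher of 9 at a Benjamini-Hochberg adjusted p under 0.05 over all 21651 genes (limma, two-sided), where 16.7% of all genes were lower, 17.6% were higher and 34.3% were called in either direction. The median log2 change of the 9 was −0.49, against 0.04 for all genes. The groups of 3 arrays did not overlap for 8 of the 9 genes, 2 with the triple mutants higher and 6 with them lower. Over all genes this held for 46.6%, 24.9% higher and 21.8% lower. Under the alternative settings tried, Apoe was the single gene of the 9 whose call in WAT changed.

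Abca1 and Abcg1 are the exporters that load cholesterol onto particles outside the cell. Abca1 (chromosome 4, minus strand, 53043660 to 53172767, build NCBIM37 as for all gene positions) was at 10.18, 10.36 and 10.37 in ob/ob WAT and at 10.31, 10.43 and 10.39 in triple mutant WAT. These arrays overlap, and the log2 change was 0.07 with a 95% interval of −0.18 to 0.32 (SE 0.12, limma adjusted p = 0.71). In BAT Abca1 was at 9.72, 9.83 and 9.39 in ob/ob and at 9.56, 9.77 and 9.71 in triple mutants. The groups overlap again, with a log2 change of 0.04 and an interval of −0.22 to 0.29 (SE 0.12, adjusted p = 0.871). The 95% intervals reached no further than 0.32 on the log2 scale in either tissue. They rest on the spread between these arrays, part or all of which may be technical. What set the Abca1 levels apart was the tissue: every BAT array lay below every WAT array, and BAT was lower by −0.66 in ob/ob (SE 0.12, adjusted p = 0.00104) and −0.69 in triple mutants (SE 0.12, adjusted p = 0.00236).

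Abcg1, which loads cholesterol mainly onto HDL (chromosome 17, plus strand, 31194643 to 31252722), behaved otherwise. It was at 10.03, 9.82 and 9.96 in ob/ob WAT and at 7.63, 7.91 and 7.81 in triple mutant WAT. All 3 triple mutant arrays were low, 1 of them above the highest control. The fitted log2 change was −2.15 (SE 0.12, limma adjusted p = 1.39e-06), which is no fold estimate with the triple mutant signal at background. In BAT, Abcg1 was at 8.53, 8.19 and 8.08 in ob/ob and at 7.07, 7.01 and 6.97 in triple mutants. The BAT groups did not overlap and the log2 change was −1.25 (SE 0.12, adjusted p = 0.000247). All 3 triple mutant BAT arrays were below the highest control and 2 of 3 ob/ob BAT arrays above it, so Abcg1 was at least 1.22-fold lower in triple mutant BAT. Ob/ob WAT was above ob/ob BAT (adjusted p = 5.6e-06), and ob/ob BAT above triple mutant WAT (adjusted p = 0.0154), a step that did not pass without triple mutant WAT array 1 (−0.40, adjusted p = 0.064). No bound above 1-fold can be given between the triple mutant groups, where 1 array of 6 was above the highest control.

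**Figure D1:**
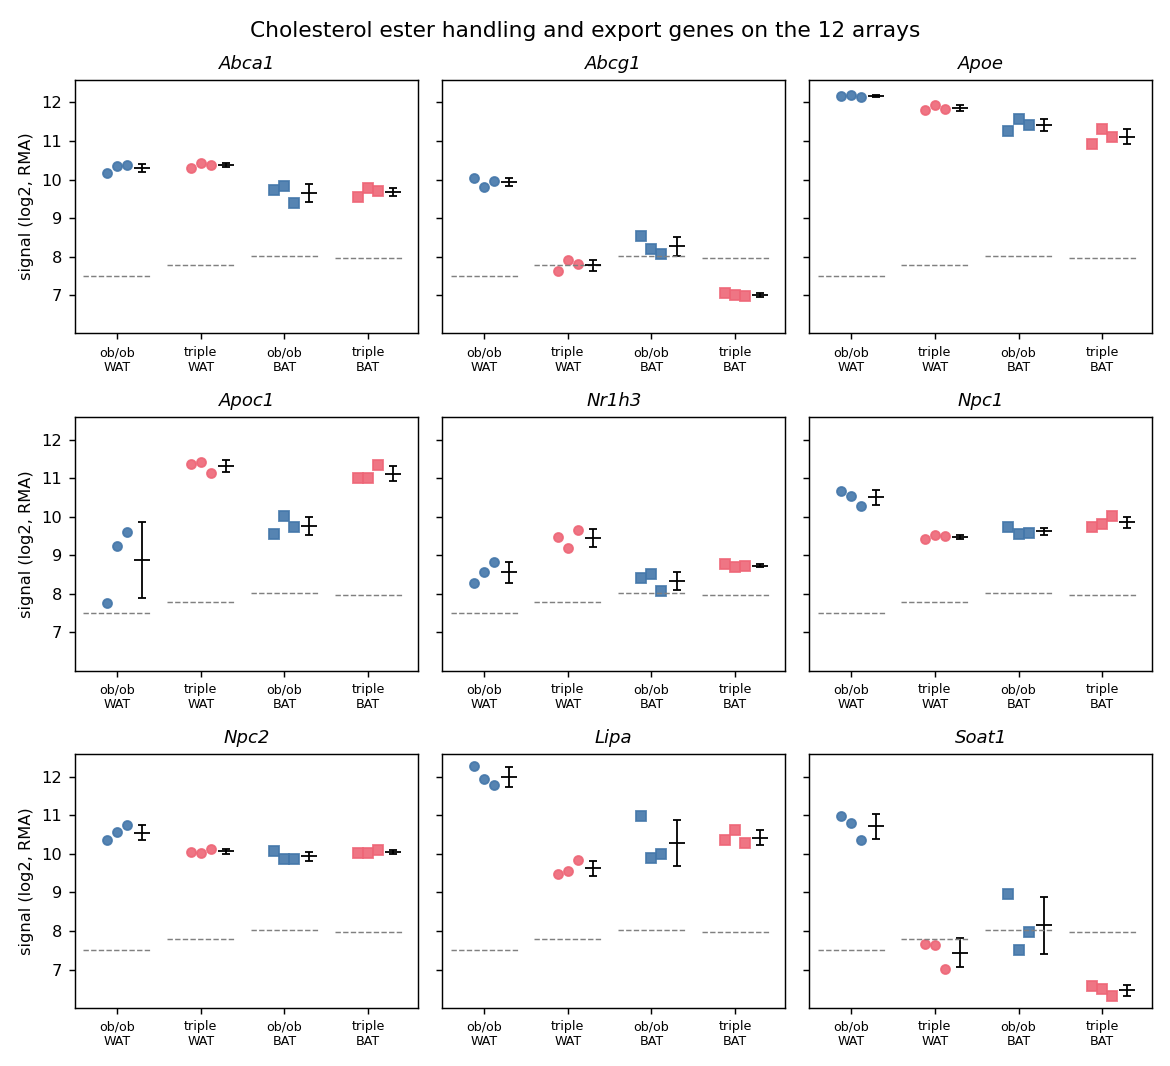
Signal (log2, RMA) of each of the 9 genes on the 12 arrays, with WAT arrays as circles, BAT arrays as squares, ob/ob in blue and triple mutants in red. Black marks give the mean and SD of the 3 arrays of a group, and the dashed line gives the mean of the highest antigenomic control over the group's arrays; Soat1 lies below that line in both triple mutant groups, while Abca1 and Apoe lie far above it in all 4.

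Apoe and Apoc1 are small apolipoproteins that exchange between lipoprotein particles: Apoe is a ligand of lipoprotein receptors, and Apoc1 modulates lipoprotein uptake and plasma enzymes. Their genes are neighbours on chromosome 7, minus strand, Apoc1 at 20274830 to 20277996 and Apoe at 20281619 to 20284401, with 3622 bases between them. Apoe was at 12.16, 12.19 and 12.14 in ob/ob WAT and at 11.80, 11.94 and 11.84 in triple mutant WAT. The triple mutant arrays were all lower, with a log2 change of −0.30 that was close to the threshold (1.23-fold, SE 0.11, limma adjusted p = 0.0466). This call was lost without any 1 of the 6 WAT arrays (adjusted p from 0.0571 to 0.129) and with quantile normalization within each tissue (adjusted p = 0.0552). In BAT, Apoe was at 11.26, 11.56 and 11.42 in ob/ob and at 10.93, 11.31 and 11.10 in triple mutants. The BAT arrays overlap, and the log2 change of −0.30 did not pass the test (95% interval −0.53 to −0.07, adjusted p = 0.0746). It passed without triple mutant BAT array 2 (log2 change −0.40, adjusted p = 0.0375).

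Apoc1 rose in both tissues. It was at 7.77, 9.25 and 9.61 in ob/ob WAT, the widest spread of any group for these genes, and at 11.37, 11.42 and 11.13 in triple mutant WAT. All triple mutant WAT arrays were above all ob/ob WAT arrays, with a log2 change of 2.43, a 5.38-fold rise (SE 0.36, limma adjusted p = 0.000277). Leaving out single WAT arrays moved this value between 1.87 and 2.80, and every adjusted p stayed under the threshold. In BAT, Apoc1 was at 9.54, 10.02 and 9.73 in ob/ob and at 11.00, 11.00 and 11.35 in triple mutants. The BAT groups did not overlap either, and the log2 change was 1.35, a 2.55-fold rise (SE 0.36, adjusted p = 0.0244). The BAT call was lost without ob/ob BAT array 1 or 3 (adjusted p = 0.0742 and 0.0656) and without triple mutant BAT array 1, 2 or 3 (0.0518, 0.0553 and 0.0833), while the log2 change stayed between 1.23 and 1.48. The triple mutant groups, highest of the 4, did not differ beyond their spread (BAT minus WAT −0.19, 95% interval −0.98 to 0.60, adjusted p = 0.8).

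Nr1h3 encodes LXR alpha (chromosome 2, minus strand, 91024218 to 91035273), which turns oxysterol levels into transcription. It was at 8.28, 8.57 and 8.82 in ob/ob WAT and at 9.47, 9.20 and 9.66 in triple mutant WAT. The triple mutant arrays were all higher, and the log2 change was 0.89 (1.85-fold, SE 0.16, limma adjusted p = 0.000926). In BAT, Nr1h3 was at 8.41, 8.51 and 8.08 in ob/ob and at 8.77, 8.69 and 8.73 in triple mutants. The triple mutant BAT arrays were above all ob/ob BAT arrays, but the log2 change of 0.39 did not pass the test (95% interval 0.05 to 0.74, adjusted p = 0.113). So Nr1h3 rose in WAT, as did Apoc1, while Abcg1, a target it is known to activate, fell there and Abca1, another, did not pass the test. These are a few genes and not the full set of targets. The Nr1h3 values are levels of the receptor's RNA and say nothing of its activity.

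Npc1 and Npc2 together release cholesterol from the lysosome: Npc2 carries it inside and Npc1 spans the membrane. Npc1 (chromosome 18, minus strand, 12348203 to 12394895) was at 10.68, 10.53 and 10.29 in ob/ob WAT and at 9.41, 9.52 and 9.49 in triple mutant WAT. The groups were well apart, with a log2 change of −1.03 (2.04-fold, SE 0.11, limma adjusted p = 2.79e-05). In BAT, Npc1 was at 9.73, 9.54 and 9.59 in ob/ob and at 9.74, 9.82 and 10.02 in triple mutants. The triple mutant BAT arrays were the higher ones, by a small margin, and the log2 change of 0.24 did not pass the test (95% interval −0.00 to 0.48, adjusted p = 0.163). Npc2 (chromosome 12, minus strand, 86095507 to 86114062) was at 10.35, 10.56 and 10.74 in ob/ob WAT and at 10.04, 10.02 and 10.13 in triple mutant WAT. It fell in WAT by 0.49 on the log2 scale, with no overlap (SE 0.10, adjusted p = 0.00308). In BAT, Npc2 was at 10.07, 9.86 and 9.87 in ob/ob and at 10.03, 10.02 and 10.10 in triple mutants. Those groups overlap and the log2 change was 0.12 (95% interval −0.11 to 0.34, adjusted p = 0.485).

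Lipa encodes lysosomal acid lipase, the enzyme that splits the esters and triglycerides that reach the lysosome (chromosome 19, minus strand, 34566804 to 34601912). In WAT it was at 12.29, 11.94 and 11.78 in ob/ob and at 9.48, 9.55 and 9.85 in triple mutants. The gap between the groups was larger than the range within either, and the log2 change was −2.37, a 5.17-fold fall (SE 0.25, limma adjusted p = 2.53e-05). In BAT, Lipa was at 10.98, 9.90 and 9.99 in ob/ob and at 10.36, 10.63 and 10.28 in triple mutants. The ob/ob arrays lay on both sides of the triple mutant arrays, and the log2 change was 0.13 (95% interval −0.41 to 0.68, adjusted p = 0.764). Ob/ob BAT array 1, the array with the highest macrophage markers in BAT, was also the highest for Lipa there. The same array had the lowest skeletal muscle markers in ob/ob BAT (mean 7.72, against 11.14 and 10.81). The part of either in the Lipa value was not tested. Leaving out single BAT arrays moved the difference between −0.06 and 0.48, and none of these values passed the test.

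Soat1 encodes the enzyme that esterifies cholesterol in most tissues (chromosome 1, minus strand, 158358239 to 158404459). It was at 10.98, 10.79 and 10.36 in ob/ob WAT and at 7.67, 7.63 and 7.01 in triple mutant WAT. All triple mutant WAT arrays were below the highest control, so Soat1 was at least 7.54-fold lower there (fitted log2 change −3.28, SE 0.31, limma adjusted p = 1.32e-05). In BAT, Soat1 was at 8.95, 7.51 and 7.98 in ob/ob and at 6.57, 6.50 and 6.31 in triple mutants. Those groups did not overlap, with a fitted log2 change of −1.69 (SE 0.31, adjusted p = 0.00436). Only ob/ob BAT array 1 was above the highest control in BAT, and the bound on the BAT difference was 1.12-fold. The BAT call held without each array in turn, with log2 changes from −2.00 to −1.29, the smallest of them without ob/ob BAT array 1.

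**Figure D2:**
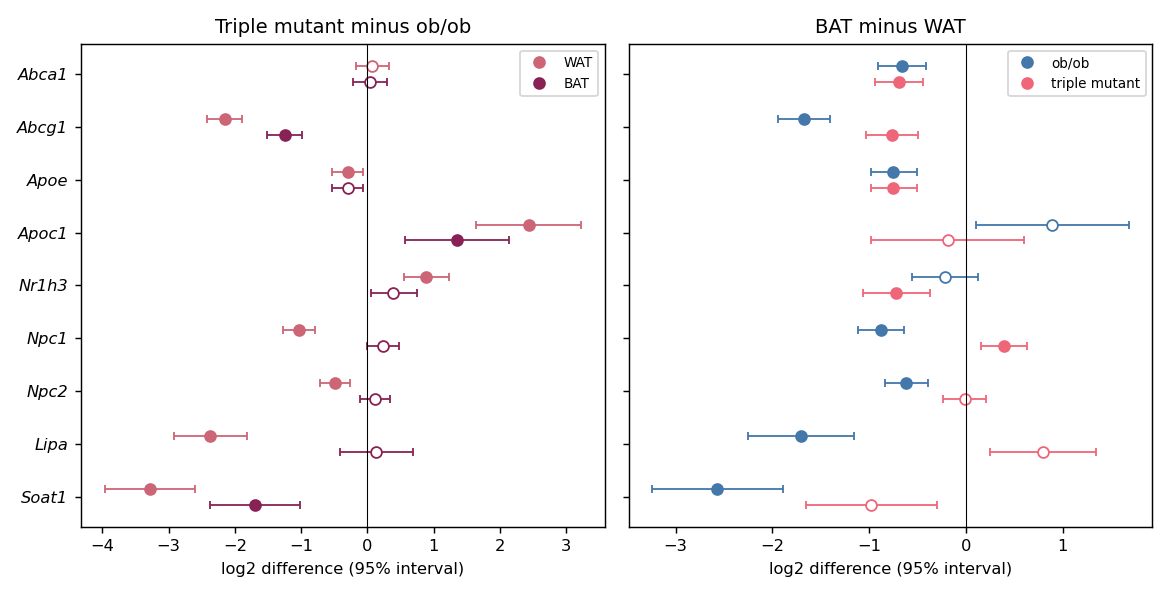
Log2 differences of the 9 genes with 95% intervals from limma, with triple mutants against ob/ob on the left (WAT and BAT as 2 colours), and on the right BAT minus WAT in each genotype. Filled points passed an adjusted p under 0.05; in WAT 6 genes lie left of 0 and 2 right of it as filled points, in BAT 2 and 1.

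In BAT as a whole, Abcg1 and Soat1 fell and Apoc1 rose, and the other 6 genes did not pass the test. Of all genes, 17.4% were called in BAT, 6.97% lower and 10.4% higher. The median log2 change of the 9 genes was 0.12, against −0.03 for all genes. Groups did not overlap for 5 of the 9 genes, as for 35.5% of all genes. For the genes that passed in both tissues the direction was the same in WAT and BAT.

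The next question was whether the genotype difference is alike in the tissues, tested as the genotype effect in BAT minus that in WAT. It was positive and passed the test for 5 of the 9 genes, Lipa, Soat1, Npc1, Abcg1 and Npc2, where 8.4% of all genes were called in that direction, 5.47% in the other and 13.9% in either. For Lipa the effects differed by 2.50 (SE 0.35, limma adjusted p = 0.00209), the largest of the 9, since Lipa fell in WAT and did not pass the test in BAT. Npc1 differed by 1.27 (SE 0.16, adjusted p = 0.00108) and Npc2 by 0.60 (SE 0.15, adjusted p = 0.0206), so for all 3 lysosomal genes the effect in WAT lay below that in BAT. Abcg1 (0.91, SE 0.17, adjusted p = 0.00719) and Soat1 (1.59, SE 0.44, adjusted p = 0.0346) were called lower in both tissues, with the larger fitted fall in WAT. The BAT values of both were in or near background, so a fall of the WAT size could not have been seen there. Their differences therefore do not show that the fall was smaller in BAT. For Abca1 (−0.03, 95% interval −0.39 to 0.32), Apoe (0.00, −0.33 to 0.33), Apoc1 (−1.08, −2.19 to 0.04) and Nr1h3 (−0.50, −0.98 to −0.01) the difference did not pass the test. The Soat1 call was lost without each of 9 arrays taken singly (adjusted p from 0.0519 to 0.0833), and held without ob/ob WAT array 3, triple mutant WAT array 1 or ob/ob BAT array 1. The Npc1, Lipa and Abcg1 calls held under each setting tried, and the Npc2 call was lost without ob/ob BAT array 3 (0.0524) or with quantile normalization within each tissue (0.0532). Without ob/ob BAT array 3, 3 of the 9 genes were called.

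Within ob/ob mice, 7 of the 9 genes were lower in BAT than in WAT and none was higher, where 19% of all genes were lower and 37.2% were called. Soat1 was lower by a fitted −2.57 (SE 0.31, limma adjusted p = 0.000104), Lipa by −1.71 (SE 0.25, adjusted p = 0.000333) and Abcg1 by −1.67 (SE 0.12, adjusted p = 5.6e-06). For Soat1, 1 of 3 ob/ob BAT arrays was above the highest control, so its value is no fold estimate. Npc1 (−0.88), Apoe (−0.75), Abca1 (−0.66) and Npc2 (−0.62) followed. Apoc1 was higher in ob/ob BAT by 0.89 without passing the test (95% interval 0.10 to 1.68, adjusted p = 0.0722), and passed with the array number as a random block (adjusted p = 0.0409) or without ob/ob WAT array 3 (1.26, adjusted p = 0.0151). Nr1h3 differed by −0.22 (95% interval −0.56 to 0.12, adjusted p = 0.287).

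Within triple mutants 4 of the 9 genes were lower in BAT and 1 was higher, where 7.93% of all genes were lower, 6.45% higher and 14.4% called in either direction. The median BAT minus WAT difference of the 9 was −0.69, against −0.75 in ob/ob. Abcg1 (fitted −0.77, SE 0.12, limma adjusted p = 0.00174, at background), Apoe (−0.75, SE 0.11, adjusted p = 0.000992), Nr1h3 (−0.72, SE 0.16, adjusted p = 0.0104) and Abca1 were the lower ones. Npc1 was the higher one, by 0.39 (SE 0.11, adjusted p = 0.0364), a call lost with the number as a fixed block (adjusted p = 0.0567), with quantile normalization within each tissue (0.0658), and without triple mutant WAT array 1, 2 or 3 or triple mutant BAT array 2 or 3 (0.0581 to 0.134). Lipa, 0.80 higher in BAT (adjusted p = 0.0544), and Soat1, with a fitted −0.98 (adjusted p = 0.0572), did not pass. Both passed with the number as a random block (0.0234 and 0.0259), with the 6 arrays alone (0.0109 and 0.0148) and with genes filtered at a mean log2 of 5 (0.0456 and 0.0477). Lipa also passed with median centring (0.0444) and did not with the number as a fixed block, while Soat1 passed with the fixed block (0.0244) and without triple mutant WAT array 3 (0.0314). Soat1 was below the highest control on all 6 arrays. For Npc2 the difference was −0.01 (95% interval −0.24 to 0.21).

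Ordered by mean level, the 4 groups gave 1 sequence for Npc1 and Lipa together. For Abcg1 and Soat1 ob/ob WAT stood first and ob/ob BAT next, and the triple mutant groups at background have no order. For Soat1 the step from ob/ob BAT to triple mutant WAT did not pass the test (0.71, adjusted p = 0.117) and the arrays overlap. Ob/ob WAT was the highest group for Abcg1, Apoe, Npc1, Npc2, Lipa and Soat1, and its gap to the next group passed the test for each of these 6, with the limit given above for Apoe. Between triple mutant WAT and ob/ob BAT, neighbours in several of these orders, 4 of the 9 genes were higher in triple mutant WAT and 1 was lower, where 23.3% of all genes were called, 13% higher and 10.3% lower. Between triple mutant BAT and ob/ob WAT, 1 was higher and 7 were lower, where 38.6% of all genes were called. Below it, Npc1 in triple mutant BAT (9.86 ± 0.14, SD, n = 3), ob/ob BAT (9.62 ± 0.10) and triple mutant WAT (9.47 ± 0.05) formed neighbours whose steps did not pass the test (adjusted p = 0.163 and 0.351). The same held for Lipa at 10.42 ± 0.19, 10.29 ± 0.60 and 9.63 ± 0.19 in that order (adjusted p = 0.764 and 0.0756). Triple mutant WAT was the highest group for Apoc1, at 11.30 ± 0.16, and for Nr1h3, at 9.44 ± 0.23. For Apoc1 the lowest group was ob/ob WAT, at 8.87 ± 0.98, and for Nr1h3 ob/ob BAT, at 8.34 ± 0.23.

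In a bulk sample, fewer cells of a type and less RNA per cell cannot be told apart, and markers of several cell types moved with these genes. Of 19 measured macrophage markers, 17 were lower and none was higher in triple mutant WAT (median log2 change −2.32), and the same counts held in BAT (median −1.49). Their mean level per array was 9.99 to 10.12 in ob/ob WAT, 7.52 to 7.59 in triple mutant WAT, 8.01 to 9.02 in ob/ob BAT and 6.93 to 7.06 in triple mutant BAT. On all arrays of the group, 1, 8, 5 and 16 of the 19 were below the highest control in these 4 groups in turn. Among defining markers, Cd68 averaged 11.78, 8.42, 9.91 and 7.97 and Csf1r averaged 10.75, 8.67, 9.18 and 7.55. Of 11 markers of lipid-laden macrophages, 9 were lower and 1 higher in triple mutant WAT (median −4.05), and 8 lower and 1 higher in BAT (median −2.05). Trem2 of that list was above the highest control on all ob/ob WAT arrays and on none of the triple mutant arrays.

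Adipocyte markers moved the other way in WAT, where 12 of 13 were higher in triple mutants and none lower (median 1.02), with a mean level per array of 9.67 to 10.60 in ob/ob WAT and 11.38 to 11.49 in triple mutant WAT. In BAT 2 were higher and 1 lower (median 0.20), at 11.01 to 11.07 and 11.26 to 11.32. None of the 13 was below the highest control on all arrays of any group. All 8 brown adipocyte markers were higher in triple mutant WAT (median 3.17), and 1 was higher in BAT. Fibroblast markers were lower for 6 of 8 in WAT and 5 of 8 in BAT. Endothelial markers were higher for 4 of 7 in WAT (median 0.54), with 1 higher and 2 lower in BAT (median −0.47), and erythroid markers were higher for 5 of 5 in WAT (median 1.17) and 2 of 5 in BAT. Of 8 T and NK cell markers 2 were lower in WAT and none was called in BAT. On all arrays of the group, 7 of these 8 were below the highest control in ob/ob WAT and 8 in each other group. Of 8 mast cell and neutrophil markers 3 were lower in WAT and none was called in BAT. The mast cell protease Cpa3 averaged 9.27 in ob/ob WAT and was below the highest control on all arrays of the other groups, as was Mcpt4, at 8.85. Within ob/ob WAT, array 1 was lowest and array 3 highest for the adipocyte markers (9.67, 10.26 and 10.60). The same held for Apoc1, Nr1h3, Npc2 and Abca1, of which Npc2 fell in triple mutant WAT. Array 1 was highest for the lipid-laden macrophage markers and for Npc1, Lipa, Soat1 and, by a small margin, Abcg1 (10.03, 9.82 and 9.96). Apoe was highest on array 2. The part of any of these lists in the 9 genes' differences was not tested.

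**Figure D3:**
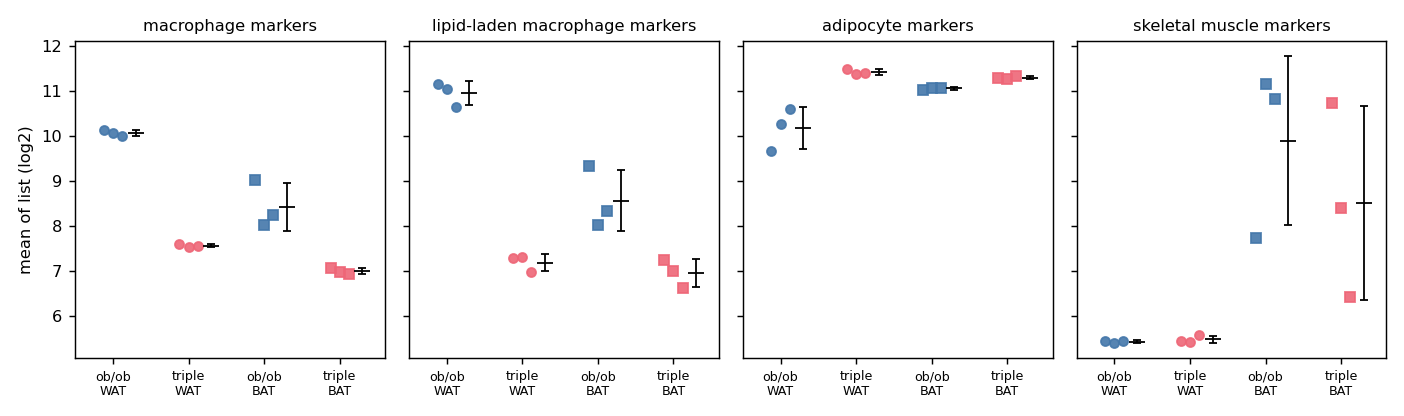
Mean log2 signal over the genes of 4 marker lists on each of the 12 arrays (circles WAT, squares BAT, blue ob/ob, red triple mutant), with the mean and SD per group. Macrophage and lipid-laden macrophage lists are lower in triple mutants in both tissues, and the skeletal muscle list spreads from 6.41 to 11.14 among the BAT arrays.

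Across the 12 arrays the 9 genes varied along a few shared patterns, given here as Pearson r across arrays that share genotype and tissue differences. The closest pair was Abcg1 and Soat1 (r = 0.98), followed by Npc1 and Lipa (0.94) and by Abca1 and Apoe (0.86). Apoc1 ran against Soat1 (−0.86), Abcg1 (−0.85) and Lipa (−0.81), and most closely with Nr1h3 (0.69). Abca1 and Apoc1 were unrelated on this measure (−0.03). Among 10529 other genes with a mean log2 of at least 6, the closest to Soat1 were Cybb, the NADPH oxidase subunit of phagocytes (0.996), Adcy7, an adenylate cyclase (0.996), and Slc25a24, a mitochondrial carrier (0.995). The closest to Abcg1 were Tlr7, an endosomal RNA sensor (0.994), Ly86, the MD-1 partner of a Toll-like receptor relative (0.993), and Frmd4b (0.993). Npc1 was most like Creg1, a secreted lysosomal glycoprotein (0.985), Ninj1, which takes part in plasma membrane rupture (0.985), and Lrp12 (0.981). Lipa was most like Ostf1 (0.981), Trim25, a ubiquitin ligase (0.981), and the aldo-keto reductase Akr1b8 (0.976).

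Apoc1 was most like Prkd1, a protein kinase (0.983), Pnpla3, a lipid droplet protein (0.981), and Cdo1, cysteine dioxygenase (0.980). Nr1h3 was most like Ncan (0.976), Morc4 (0.966) and Slc25a10, the mitochondrial dicarboxylate carrier (0.965). The genes most like Apoe included Ms4a4d (0.974) and the glypican Gpc6 (0.968). Abca1 was most like Reck, an inhibitor of matrix proteases (0.974), Atxn10 (0.969) and Sycp3 (0.968). The best partners of Npc2 were looser, with Tmem180 at 0.947, Golph3l at 0.929 and Tmem55b at 0.925. With 12 arrays in 4 groups, these values rest largely on 4 group means.

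The wider pathway was read from 7 lists, which hold 54 measured genes besides the 9. Of these 54, 14 were higher and 9 lower in triple mutant WAT (median log2 change 0.04), and 6 higher and 6 lower in BAT (median 0.09). That is 42.6% called in WAT and 22.2% in BAT, against 34.3% and 17.4% of all genes, the shares against which the counts of the single lists are to be read too. The other efflux transporters, Abcg4, Abcg5, Abcg8, Abca5 and Abca7, gave no call in WAT, so of that list of 7 Abcg1 was the single member called (list median 0.05). In BAT the list gave 2 lower calls, Abcg1 and Abcg8, an intestinal and hepatic sterol exporter that was below the highest control on all arrays.

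Among 8 lipoprotein carriers and plasma enzymes, 3 were higher and 2 lower in WAT (median 0.04). Apoc2, the cofactor of lipoprotein lipase, was at least 3.09-fold higher in triple mutant WAT (fitted log2 change 2.49, SE 0.14, limma adjusted p = 1.39e-06), since all ob/ob WAT arrays were below the highest control. Apoc4 had a log2 change of 1.05 (adjusted p = 0.00239) below that control on all arrays. Pltp, which moves phospholipid between lipoproteins, fell in WAT by 1.57 on the log2 scale (SE 0.14, adjusted p = 9.78e-06) and in BAT by 0.63 (adjusted p = 0.0107). In BAT, 1 gene of this list was higher and 1 lower (median −0.16).

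A list of 8 genes held the oxysterol receptors, their partner, some of their targets and the bile acid receptor Nr1h4. Of these 8, 4 were higher and none lower in WAT (median 0.39), and none was higher and 2 lower in BAT (median 0.11). Nr1h4 was below the highest control on all arrays. Some other known targets of the oxysterol receptors stand in other lists. There Abcg1, Apoe and Pltp were lower in WAT and Abca1 did not pass the test. In the carrier list Apoc1 (log2 change 2.43), Apoc2 (fitted 2.49) and Apoc4 (1.05, below the highest control) were higher in WAT. Not every known target was listed, so these directions describe the named genes only. Beside Nr1h3 the called genes of the receptor list in WAT included Srebf1, the regulator of fat synthesis (log2 change 1.27, SE 0.15, limma adjusted p = 5.33e-05), and Rxra, the partner receptor of LXR (0.66, SE 0.16, adjusted p = 0.0078). In BAT the lower ones were Scd1, stearoyl-CoA desaturase (−1.77, SE 0.40, adjusted p = 0.0117), and Mylip, a ubiquitin ligase for the LDL receptor (−0.46, SE 0.14, adjusted p = 0.0396). The Scd1 arrays spread widely in triple mutant BAT (SD 1.06, against 0.14 in ob/ob BAT). Of 5 oxysterol and bile acid side enzymes, 1 was lower in WAT, Cyp7b1, below the highest control on all arrays, and none was called in BAT (median −0.05).

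Of 16 lysosomal and other sterol movers, 3 were higher and 5 lower in WAT (median −0.16), while in BAT 4 were higher and none lower (median 0.21). In WAT Osbpl8, of the oxysterol-binding protein family, fell (log2 change −2.33, SE 0.22, limma adjusted p = 1.36e-05), and Stard3, a late endosomal cholesterol binder, was at least 1.36-fold lower (fitted −0.81, adjusted p = 0.00165). Gramd1a, which draws cholesterol from the plasma membrane to the endoplasmic reticulum, rose in WAT (0.51, adjusted p = 0.00157). In BAT it was at least 1.39-fold higher (fitted 0.76, adjusted p = 0.000739). Gramd1c was called higher in WAT (0.78) below the highest control on all arrays, and Stard5, a cytosolic cholesterol carrier, rose in BAT (0.76, SE 0.10, adjusted p = 0.000743).

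Of 8 genes of ester hydrolysis and esterification, 3 were higher and 3 lower in WAT (median −0.06), and the list split. Nceh1, a neutral hydrolase of cholesterol esters known from macrophages, joined Lipa and Soat1 and was at least 7.18-fold lower in triple mutant WAT (fitted log2 change −3.58, SE 0.38, limma adjusted p = 2.78e-05). The carboxylesterases Ces1d (2.80, SE 0.25, adjusted p = 9.71e-06) and Ces1f (1.99, SE 0.27, adjusted p = 0.000149) rose, and Ces1d is a lipase of fat cells. In BAT 1 gene was higher, Ces1f (0.97, SE 0.27, adjusted p = 0.0296), and 1 lower, Soat1.

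Of 11 lipoprotein and sterol uptake genes, 3 were higher and 3 lower in WAT (median 0.04), and 1 higher and 2 lower in BAT (median −0.06). Vldlr, the receptor for triglyceride-rich particles, rose in both tissues (1.28, limma adjusted p = 0.000261, and 0.87, adjusted p = 0.00953), and Scarb1, the HDL receptor, rose in WAT (0.79, adjusted p = 0.00219). Lrp1, a receptor for Apoe-bearing remnants, fell in both (−1.38, adjusted p = 8.48e-06, and −0.62, adjusted p = 0.00566). The macrophage scavenger receptor Msr1 was at least 3.65-fold lower in triple mutant WAT (fitted −3.67, SE 0.35, adjusted p = 1.41e-05). In BAT its fitted log2 change was −1.70 (adjusted p = 0.0075), with 1 ob/ob BAT array above the highest control.

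**Figure D4:**
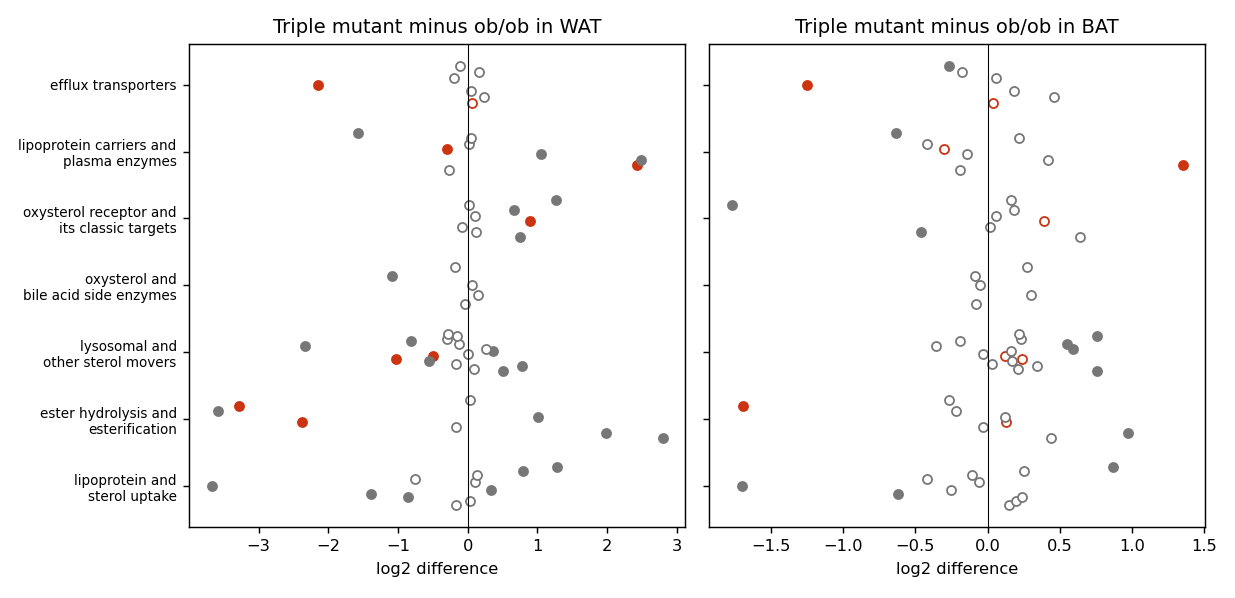
Log2 difference, triple mutant minus ob/ob, of every gene of the 7 pathway lists in WAT (left) and BAT (right), with the 9 genes in red and the others in grey; filled points passed an adjusted p under 0.05. The ester list is spread widest in WAT, with Nceh1 and Soat1 at the low end and Ces1d at the high end.

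The authors' deposited table of changed probe sets in WAT lists 5945 probe sets and holds 7 of the 9 genes, with log2 changes of −3.10 for Soat1, −2.27 for Lipa, −2.04 for Abcg1, −0.95 for Npc1, −0.19 for Apoe, 0.90 for Nr1h3 and 2.41 for Apoc1. The authors' deposited table for BAT lists 1164 probe sets and holds 2 of the 9, Abcg1 at −1.10 and Apoc1 at 1.40. Abca1 is in neither, Npc2 is not in the WAT table, and Soat1 is not in the BAT table. The cutoff behind these tables was not read here, so a gene's absence from them cannot be set against the calls above.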

How the data were processed

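The deposited values are log2 signals of 35556 probe sets on 12 arrays, named as gene-level RMA per the file headers. RMA and limma are the tools in the submitters' processing notes. RMA corrects background, gives all arrays 1 distribution and combines the probes of a set, so large one-sided shifts between samples can be evened out. The authors' tables of changed probe sets give log2 changes, per the file headers. Another 12 array columns of the authors' expression table matched no sample label and were not used.

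Of 28350 main probe sets, 25004 named 1 gene. Each of 21651 genes was represented by its probe set with the highest mean. Of their symbols 18663 matched the RefSeq table directly, 2243 by a synonym and 745 not at all. Ensembl entries of the annotation name build NCBIM37; promoters are RefSeq's on GRCm38.p6, and no coordinates were converted. No filter on low signal was used. One limma 3.58.1 model in R 4.3.3 (lmFit and eBayes, 8 residual and 3.47 prior degrees of freedom) held 4 group means, with Benjamini-Hochberg adjustment over all genes, and was tested on simulated data. With 3 arrays a group, precision is limited by their number. A fold against a group below the highest antigenomic control on all its arrays is given as "at least", with the dim arrays set at that control.

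The 9 genes, the lists and the tests were chosen with earlier results of these data known. The named genes are the 9, for each pathway list up to 2 others per direction and tissue with the smallest p among those called, for each of the 9 the 3 genes of highest Pearson r, of which 1 is not reported here, and any defining marker. Alternatives were normalization within tissue, median centring, a filter at a mean log2 of 5, the mean of a gene's probe sets, eBayes with trend and robust fitting, the array number as a block, the arrays of a comparison alone, and each array left out. The array numbers of the titles were checked for pairing by the correlation of deviations from group means. Between WAT and BAT of 1 genotype it was 0.22, 0.22 and 0.16 (ob/ob) and 0.15, 0.21 and 0.19 (triple mutant) for equal numbers. These were taken as pairs only in the alternatives with a block. The main tests, those between tissues included, are unpaired. Between genotypes the correlation was −0.05, 0.07 and 0.11 for WAT and −0.43, −0.24 and −0.23 for BAT, and no pairing was taken. Python 3.11.15 and matplotlib 3.10.9 made the tables and figures.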

Additional observations from a re-analysis of the deposited data

Results flagged for a closer look

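For 5 of the 9 genes the test of the difference between tissues passed the threshold, that is, the genotype effect in BAT differed from that in WAT (limma, adjusted p under 0.05). Of all genes 13.9% passed, 8.4% with a positive difference and 5.47% with a negative one. The marker counts below are to be read against these shares too. The difference, on the log2 scale as BAT effect minus WAT effect, was 2.50 for Lipa, 1.59 for Soat1, 1.27 for Npc1, 0.91 for Abcg1 and 0.60 for Npc2. All 5 genes fell in WAT. In BAT Abcg1 and Soat1 fell as well, with triple mutant signals below the highest control. Their ob/ob BAT signals were in or near background too, so their differences do not show a smaller fall in BAT. Lipa, Npc1 and Npc2 did not pass the test in BAT, where their log2 changes were 0.13, 0.24 and 0.12. Of the macrophage markers, 17 of 19 fell in WAT and 17 of 19 in BAT, with 11 of 19 giving a positive difference between tissues that passed the test (median 1.16) and none a negative one. Of 8 mast cell and neutrophil markers, 3 gave a positive difference that passed the test, among them Cpa3 (4.30, adjusted p = 0.00291), with log2 changes of −3.07 in WAT and 1.23 in BAT, the latter not past the test. Of 13 adipocyte, 8 brown adipocyte, 7 endothelial and 5 erythroid markers, 7, 5, 4 and 3 gave a negative one and none a positive one. The part of these lists in the 5 differences was not tested.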

How the results depend on the processing

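Of 909 values of the 9 genes under alternative settings, 851 were counted as unchanged, 31 lost a call, 15 gained one and 12 changed sign. A value of 0.00 has no sign, so Apoe's difference between tissues (0.00 with all arrays) was counted as unchanged throughout. It ran from −0.10 to 0.09 without single arrays and was 0.12 with median centring. The changed signs belong to values that passed no test: Abca1 in BAT (−0.04 with normalization within tissue, −0.09 to 0.13 without single arrays), Lipa in BAT (−0.06 to 0.48 without single arrays), the tissue difference of Abca1's genotype effects (0.08 with median centring, −0.16 to 0.06 without single arrays) and Npc2 between tissues in triple mutants (0.02 with median centring, −0.04 to 0.02 without single arrays). Their cause was not tested. Apoe in WAT, Apoc1 in BAT and the difference between tissues for Soat1 each lost their call without most of the single arrays left out. Without each array in turn, the count of the 9 genes called was 7 each time in WAT (Apoe lost) and ran from 2 to 3 in BAT, 3 to 5 for the difference between tissues, 7 to 8 between tissues in ob/ob, 4 to 5 in triple mutants and 4 to 7 for triple mutant WAT against ob/ob BAT (5 with all arrays). Over all genes the counts ran from 2466 to 3787 in BAT (3760 with all arrays), 1778 to 3399 for the difference between tissues (3002), 1836 to 3589 between tissues in triple mutants (3112) and 3124 to 4998 for triple mutant WAT against ob/ob BAT (5043). With the replicate block, 8 of the 9 genes were called in WAT and 5 for the difference between tissues, as without it. In BAT the fixed block added Apoe (4 called, adjusted p = 0.0343); beyond this, the blocks changed the calls of Apoc1 in ob/ob and of Npc1, Lipa and Soat1 in triple mutants between tissues, and no other call of the 9 genes. Background limits Soat1 and Abcg1 in triple mutants and Soat1 in BAT, where a log2 change is no fold estimate.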
